A study of Mus musculus with 6 samples.

Results

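The 10 genes described here are the Slit-Robo genes of the mouse: the receptors Robo1, Robo2, Robo3 and Robo4, the secreted ligands Slit1, Slit2 and Slit3, and the cytoplasmic effectors Srgap1, Srgap2 and Srgap3. They were found by symbol, 10 of the 23420 genes in the count table, and 7 of them passed the filter on low counts, as did 11974 genes in all. The set was chosen by the low Robo1 counts of the MSC-TPr libraries, with the rest of the pathway taken along by name. The comparison of Robo1 between the groups is therefore given as a description with no test. The remaining 9 genes were taken by family name, but with earlier results of these data known.

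RNA was sequenced from mesenchymal stromal cells (MSCs), the adherent stromal cells of bone marrow. They were grown from femurs of female C57BL/6 mice aged 6 to 8 weeks. Both groups had been transduced with the AP2 retrovirus, which also carries eGFP. In 3 libraries titled Tpr, here labelled MSC-TPr, the virus coded for the thymoproteasome subunits β1i, β2i and β5t (mouse genes Psmb9, Psmb10 and Psmb11). In 3 libraries titled MSC, here labelled Ctl MSC, it was empty. The titles name no virus, so this reading rests on the comparison that the study describes. The libraries are called Ctl 1 to 3 and TPr 1 to 3 below. Whether the 3 libraries of a group came from separate cultures was not stated, so the p-values measure only the spread between libraries, which may be technical.

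Robo receptors are single-pass membrane proteins of the immunoglobulin superfamily, and Robo1 and Robo2 bind the large secreted Slit proteins. The pathway is best known for turning growing axons away from the midline of the nervous system, and it also acts in cell migration, blood vessels and the cells of bone. Srgap proteins bend membranes through an F-BAR domain, bind the cytoplasmic part of Robo and switch off small GTPases.

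The reads counted on genes ranged from 16158756 to 22158887 in a library. Levels are given in CPM, which are read counts scaled for library size by edgeR's TMM method, and the detection limit of 3 reads lay at 0.139 to 0.181 CPM. Such limits and the intervals given below cover counting error only. The transduced genes did not separate the groups: Psmb11 had 1 to 6 reads in each library, Psmb9 0.801 to 3.38 CPM in Ctl and 0.554 to 1.24 CPM in TPr, and Psmb10 8.38 to 27.8 CPM in Ctl and 8.97 to 17.3 CPM in TPr. Groups are thus named by their labels alone. Libraries Ctl 1 and TPr 1 stood apart from the others of their label on the first principal component, which carried 58.5% of the variance: Ctl 1, TPr 2 and TPr 3 lay between -50.3 and -40.9 and the other 3 libraries between 40.5 and 50.8. The summed level of 8 cell division genes, among them Mki67 and Top2a, split the same way, at 1120 to 1250 CPM in Ctl 1, TPr 2 and TPr 3 and at 125 to 130 CPM in Ctl 2, Ctl 3 and TPr 1. Results are therefore also given for the 4 libraries numbered 2 and 3, and in these 4 the label and the cell division level cannot be told apart. Ctl 2 and Ctl 3 differed least of all pairs of libraries, with a chi-square of 4.76 per gene beside 50 for TPr 2 and TPr 3. The p-values of the 4 libraries rest partly on this close pair, and whether it is a technical repeat was not stated. Of 8 MSC markers, 7 reached at least 1 CPM in each library and Thy1 (CD90) had at most 1 read. The ecto-nucleotidase Nt5e (CD73) lay at 11.4 to 20.2 CPM in Ctl and 2.66 to 5.24 CPM in TPr, and its part in the results that follow the label was not tested.

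The sequences before a RefSeq start site of 4 of the genes are shown because these genes follow different patterns below: Robo1 and Robo2, the receptors with few reads in TPr, Slit2, which split the libraries across the labels, and Srgap3, the most abundant member per length. They are up to 250 bases (RefSeq, assembly GRCm38.p6, written 5′ to 3′ on the strand of the gene; the last 17 bases of the Slit2 window lie in an annotated exon and are not shown). The Robo1 window lies inside the gene as GENCODE annotates it, which begins further upstream. The Robo2 window shown borders the GENCODE gene, while its other RefSeq start sites, at 75092770 and 75447293, lie upstream of that gene. Capitals mark matches on either strand to the GC box spelled GGGCGG and to the TATA box, which is spelled TATAAA.
Robo1, chr16:72662899-72663148, plus strand: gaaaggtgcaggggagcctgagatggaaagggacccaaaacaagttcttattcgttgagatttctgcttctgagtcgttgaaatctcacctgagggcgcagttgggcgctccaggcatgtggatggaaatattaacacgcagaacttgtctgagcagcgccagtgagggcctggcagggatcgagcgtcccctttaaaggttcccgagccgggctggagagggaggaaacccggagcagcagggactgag
Robo2, chr16:74411826-74412075, minus strand: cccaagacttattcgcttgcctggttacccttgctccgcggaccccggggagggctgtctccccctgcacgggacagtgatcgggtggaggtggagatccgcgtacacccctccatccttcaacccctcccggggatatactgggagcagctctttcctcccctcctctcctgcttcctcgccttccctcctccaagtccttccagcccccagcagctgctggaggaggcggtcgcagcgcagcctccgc
Slit2, chr5:47982905-47983137, plus strand: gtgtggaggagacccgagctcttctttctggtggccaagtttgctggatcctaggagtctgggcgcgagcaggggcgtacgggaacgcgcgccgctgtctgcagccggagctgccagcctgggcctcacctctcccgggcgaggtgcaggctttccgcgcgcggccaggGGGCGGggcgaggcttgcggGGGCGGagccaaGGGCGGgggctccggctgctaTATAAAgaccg
Srgap3, chr6:112947267-112947516, minus strand: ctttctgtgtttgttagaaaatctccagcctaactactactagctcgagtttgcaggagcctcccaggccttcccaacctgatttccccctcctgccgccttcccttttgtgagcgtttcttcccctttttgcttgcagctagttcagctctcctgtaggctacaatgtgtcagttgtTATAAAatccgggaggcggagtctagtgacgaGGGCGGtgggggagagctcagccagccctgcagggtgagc

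The Robo1 window and all 3 RefSeq windows of Robo2 held none of the 3 motifs searched on both strands, the GC box and TATA box as spelled above and the CCAAT box, none of which is contained in another. The Slit2 window held 3 GC boxes and 1 TATA box, and the Srgap3 window held 1 of each. Among 32851 windows of 250 bases over all genes, 32.74% held a GC box, 33.85% a CCAAT box and 12.37% a TATA box. Over the full 250 bases, the share of G and C was 56.0% for Robo1, 69.6% for Slit2 and 54.0% for Srgap3, and 65.6% for the Robo2 window shown and 53.2% and 44.8% for its other windows, beside a median of 52.4% over all windows. A match is a description and no match says only that these letters are not in the window. RefSeq windows were found for 9 of the 10 genes, all but Slit1. The counts cover whole genes, so the start site used in these cells was not measured.

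Robo1 had many reads in the Ctl libraries and few in the TPr libraries. It lies on chromosome 16 of mm10 from 72308306 to 73046095 on the plus strand (GENCODE annotation). Its reads numbered 263, 500 and 523 in Ctl 1, 2 and 3 and 5, 6 and 12 in TPr 1, 2 and 3. Its level was 15.9, 26.7 and 28.8 CPM in Ctl and 0.277, 0.355 and 0.557 CPM in TPr. The groups did not overlap, and the lowest Ctl library was Ctl 1. The mean was 23.8 ± 6.95 CPM in Ctl and 0.396 ± 0.144 CPM in TPr (SD over 3 libraries each). The level was 58.4-fold lower in TPr, or -5.87 as log2 fold change. Ordered by fall, Robo1 had rank 10 among the 11974 genes tested. Pooled over libraries, 1286 reads in Ctl stood against 23 in TPr, a depth-scaled ratio of 59.2 (95% counting interval 39.3 to 93.7). The interval leaves out the spread between libraries and is no test, since the fall of Robo1 chose the set. In bulk RNA, fewer cells that use a gene and less RNA per cell cannot be told apart.

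Robo2, the paralogue that lies next to Robo1, followed the same order at a much lower level. It spans 73891839 to 74411825 of chromosome 16 on the minus strand in the GENCODE annotation. The genes are separated by 845744 bases, with no other gene of the table between them. Its reads numbered 27, 37 and 28 in Ctl and 2, 5 and 1 in TPr, that is 1.63, 1.98 and 1.54 CPM against 0.111, 0.296 and 0.0464 CPM. All 3 Ctl libraries lay above all 3 TPr libraries. The log2 fold change was -3.50 (SE 0.60) and missed the threshold (adjusted p = 0.0774, edgeR's quasi-likelihood test, Benjamini-Hochberg adjustment over the whole table), while DESeq2 called it (log2 fold change -3.56, adjusted p = 0.000154). With 1 to 5 reads in a TPr library, Robo2 passed the filter through its Ctl libraries, so these tests are no support beyond the reads themselves. The pooled reads, 92 against 8, gave a ratio of 12.2 (95% counting interval 5.93 to 29.0). On the other side of Robo1 the nearest gene of the table, 4930567J20Rik, lay 1041130 bases away and had 0 reads in all 6 libraries.

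Robo3 and Robo4, which are neighbours on chromosome 9 with 554 bases between them, were at or near 0. Robo3, the receptor that sets commissural axon crossing, had 1 read in Ctl 2 and none elsewhere. Robo4, the receptor of endothelial cells, had 0 reads in all 6 libraries, below the limit of 3 reads, which is 0.139 to 0.181 CPM. Of 6 endothelial markers, Pecam1, Cdh5, Tie1 and Emcn were at 0.221 CPM or below in each library, Tek reached 0.332 CPM and Kdr lay at 0.544 to 2.70 CPM in Ctl and 1.39 to 2.99 CPM in TPr. The 6 endothelial, 5 blood and macrophage and 6 neural and glial markers summed to 0.785 to 3.32 CPM, 1.90 to 14.2 CPM and 6.15 to 19.0 CPM per library.

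**Figure D1:**
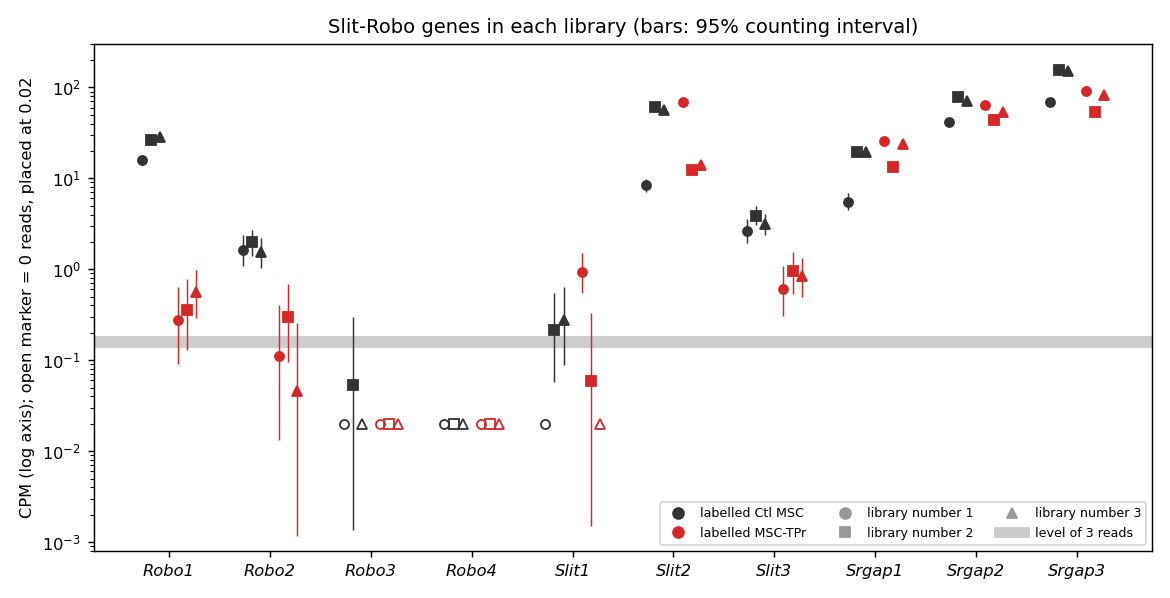
Level of the 10 Slit-Robo genes in each library, in CPM on a log axis, with black markers for libraries labelled Ctl MSC, red markers for libraries labelled MSC-TPr, marker shapes for the library number, bars for the 95% counting interval, open markers for 0 reads, placed at 1 fixed height and a grey band for 3 reads. For Robo1, Robo2 and Slit3 the 3 Ctl points all sit above the 3 TPr points, while those of Slit2 and of Srgap1, Srgap2 and Srgap3 overlap.

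Among the ligands, Slit3 was the one whose groups did not overlap. Slit3 (chromosome 11, 35121224 to 35708507, plus strand) had 44, 73 and 57 reads in Ctl and 11, 16 and 18 in TPr, or 2.66, 3.90 and 3.14 CPM against 0.609, 0.946 and 0.835 CPM. The log2 fold change was -2.01 (SE 0.33), a level 4.04-fold lower in TPr that missed the threshold with edgeR's quasi-likelihood test (adjusted p = 0.0774) and passed it with DESeq2 (adjusted p = 0.000162). The 174 pooled Ctl reads against 45 in TPr gave a ratio of 4.09 (95% counting interval 2.93 to 5.81).

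Slit2, the ligand with the most reads, did not divide by label. Slit2 (chromosome 5, 47983138 to 48307733, plus strand) reached 8.40, 61.2 and 55.9 CPM in Ctl and 68.4, 12.5 and 14.1 CPM in TPr. Ctl 1 was the lowest library and TPr 1 the highest, so the groups overlapped over most of their range. The log2 fold change was -0.40 (SE 0.90) over 6 libraries (edgeR, adjusted p = 0.87) and -2.14 (SE 0.13) over the 4 libraries numbered 2 and 3 (edgeR, adjusted p = 0.000219). Slit2 was low, at 8.40 to 14.1 CPM, in the 3 libraries with high cell division genes and lay at 55.9 to 68.4 CPM in the other 3. The part of cell division in this split was not tested. Slit1, the ligand best known from the brain, had 0, 4 and 5 reads in Ctl and 17, 1 and 0 in TPr, and did not pass the filter.

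**Figure D2:**
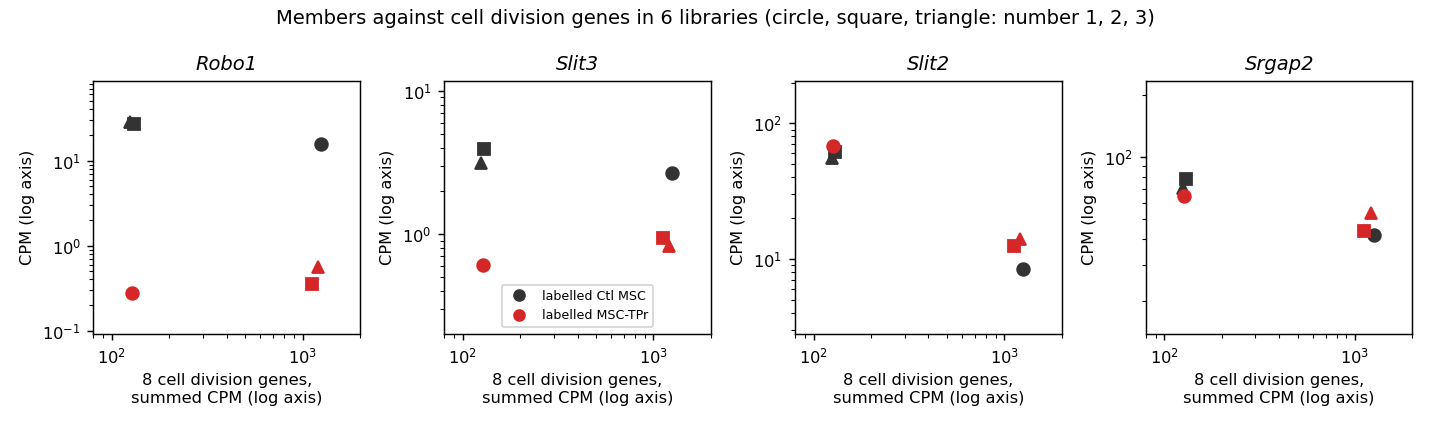
Level of Robo1, Slit3, Slit2 and Srgap2 in CPM against the summed CPM of 8 cell division genes in the 6 libraries, both on log axes, with colour for the label and marker shape for the library number. Robo1 and Slit3 separate by label over all 6 libraries, and so at both low and high cell division level. Slit2 and Srgap2 separate by cell division level. Slit2 lies at 8.40 to 14.1 CPM on the right and 55.9 to 68.4 CPM on the left.

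Robo1, Robo2 and Slit3 also lay apart by label at like cell division level. This follows from groups that did not overlap over all 6 libraries, and the part of cell division was not tested. Among the 3 libraries with high cell division genes, Robo1 stood at 15.9 CPM in Ctl 1 against 0.355 and 0.557 CPM in TPr 2 and 3, and among the other 3 at 26.7 and 28.8 CPM in Ctl 2 and 3 against 0.277 CPM in TPr 1. For Robo2 the same values were 1.63 against 0.296 and 0.0464 CPM, and 1.98 and 1.54 against 0.111 CPM. For Slit3 they were 2.66 against 0.946 and 0.835 CPM, and 3.90 and 3.14 against 0.609 CPM. Slit2 lay the other way, lower in the Ctl libraries of both sets: 8.40 CPM against 12.5 and 14.1 CPM, and 61.2 and 55.9 CPM against 68.4 CPM. So did Srgap1, at 5.56 CPM against 13.3 and 24.1 CPM, and 19.5 and 19.6 CPM against 25.7 CPM. Srgap2 and Srgap3 did not keep the same order in both sets. With 1 library of a label on each side, these differences had no test.

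The Srgap effectors were abundant in every library and their groups overlapped. Srgap3 (chromosome 6, 112717971 to 112947266, minus strand) reached 69.0, 155 and 150 CPM in Ctl and 91.6, 54.2 and 82.1 CPM in TPr. TPr 1 and TPr 3 lay above Ctl 1 and every TPr library lay below Ctl 2 and Ctl 3. The 3 libraries with high cell division genes, at 54.2 to 82.1 CPM, were also the lowest here, and the part of cell division was not tested. Its means were 125 ± 48.4 and 76.0 ± 19.4 CPM (SD over 3 libraries), with a log2 fold change of -0.72 (SE 0.36) that did not pass (edgeR, adjusted p = 0.403).

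Srgap2 (chromosome 1, 131285251 to 131527352, minus strand) reached 41.7, 77.8 and 70.3 CPM in Ctl and 64.4, 43.7 and 53.4 CPM in TPr. It was low in the same 3 libraries as Slit2, and its log2 fold change was -0.23 (SE 0.27; edgeR, adjusted p = 0.739). Srgap1 (chromosome 10, 121780991 to 122047315, minus strand) reached 5.56, 19.5 and 19.6 CPM in Ctl and 25.7, 13.3 and 24.1 CPM in TPr. Its lowest value was that of Ctl 1, and the log2 fold change was 0.50 (SE 0.51; edgeR, adjusted p = 0.698) over 6 libraries and -0.06 over the 4 numbered 2 and 3. Exons of Srgap1 and Srgap3 overlap those of unlisted genes by 131 and 150 bases in the GENCODE annotation, and the setting for such reads in the counting was not given.

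**Figure D3:**
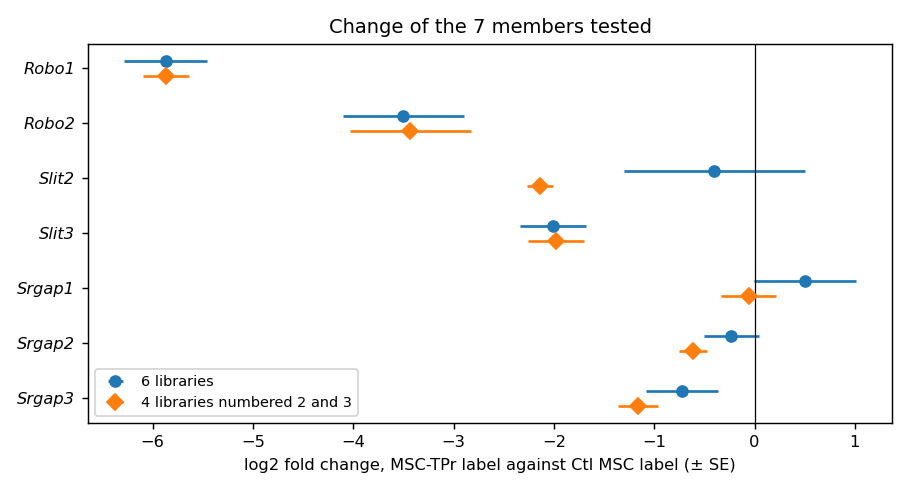
Log2 fold change of the 7 members that passed the filter (MSC-TPr label against Ctl MSC label, ± SE, edgeR), in blue for 6 libraries and in orange for the 4 libraries numbered 2 and 3. Robo1, Robo2 and Slit3 hardly move between the fits, Slit2 moves from -0.40 to -2.14, and Srgap1 from 0.50 to -0.06. Robo1 is shown as a description, since its fall chose the set, and its bar is no test.

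Counted over the 9 members other than Robo1, edgeR's quasi-likelihood test called 0 (adjusted p under 0.05, fold change on the log2 scale no smaller than 0.5 either way), against 0.426% of all genes tested (51 of 11974). At an unadjusted p under 0.05 there were 2, Robo2 and Slit3 (15.0% of all genes tested), and DESeq2 called the same 2, with 5.28% of all genes called. In the 4 libraries numbered 2 and 3, 5 of the 6 members tested were called, all lower in TPr, with 40.0% of all genes called: Robo2 at -3.43 (SE 0.60), Slit2 at -2.14, Slit3 at -1.98, Srgap3 at -1.16 and Srgap2 at -0.61 on the log2 scale. Groups without overlap and lower in TPr were found for 2 of these 6 members and for 12.1% of all genes. Since Robo1 and Robo2 passed the filter through their Ctl libraries and the set was chosen in this contrast, nothing is read from these counts.

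To compare levels between genes, CPM was divided by the length of the longest coding transcript. On this scale of CPM per kilobase, Srgap3 had the highest level of the 10 genes in every library, at 7.76, 17.4 and 16.9 in Ctl and 10.3, 6.10 and 9.24 in TPr. Srgap2 followed at 5.20, 9.69 and 8.76 in Ctl and 8.02, 5.44 and 6.65 in TPr. Below these, Slit2 and Robo1 changed order between the Ctl libraries, with Srgap1 below both in each. Robo1 came next in Ctl 1, ahead of Slit2 at 0.843 and Srgap1 at 0.714. In Ctl 2 and 3 Slit2 at 6.14 and 5.62 was ahead of Robo1 at 3.53 and 3.81. In TPr, Robo1 was at 0.0366 to 0.0736 and below Slit3, at 0.116 to 0.181, in each library.

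**Figure D4:**
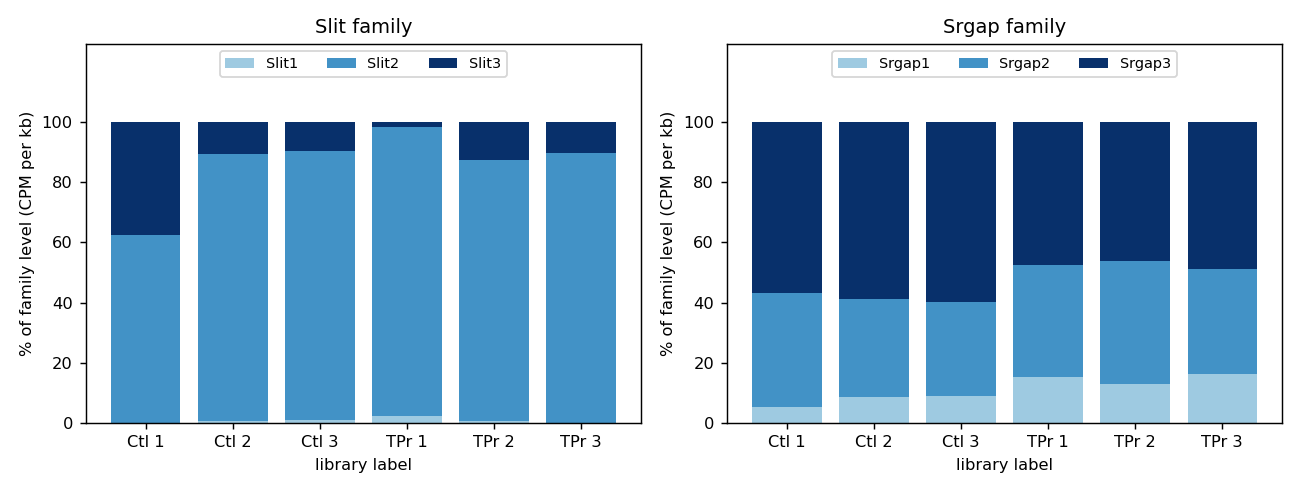
Share of each gene in the summed level of the Slit family (left) and the Srgap family (right), in percent of CPM per kilobase, with 1 stacked bar per library. Slit2 makes up 62.4% of the Slit sum in Ctl 1 and 86.7% to 96.0% in the other libraries, and Srgap3 makes up 56.8% to 60.0% of the Srgap sum in Ctl and 46.1% to 48.7% in TPr.

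The make-up of each family followed from these levels. The summed Robo level was 2.29, 3.77 and 3.99 CPM per kilobase in Ctl and 0.0495, 0.0814 and 0.0790 in TPr. Robo1 held 91.7%, 93.6% and 95.5% of it in Ctl and 74.0%, 57.7% and 93.2% in TPr, where all Robo reads were so few that the shares rest on 5 to 12 reads of Robo1. Slit2 held 62.4%, 88.7% and 89.6% of the Slit level in Ctl and 96.0%, 86.7% and 89.8% in TPr. The ratio of summed Slit to summed Robo level was 0.590, 1.84 and 1.57 in Ctl and 144, 17.8 and 19.9 in TPr, so that receptor RNA was of the order of ligand RNA in each Ctl library and far below it in each TPr library. This ratio contains Robo1 and has no test.

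Within the Srgap family the shares of Srgap3 and Srgap1 lay apart by label, although the groups overlapped for each gene. Srgap3 held 56.8%, 58.9% and 60.0% of the Srgap level in Ctl and 47.6%, 46.1% and 48.7% in TPr. The share of Srgap2 overlapped, at 38.0%, 32.7% and 31.1% in Ctl and 37.1%, 41.1% and 35.0% in TPr. The ratio of Srgap3 to Srgap1 was 10.9, 6.97 and 6.73 in Ctl and 3.12, 3.59 and 2.99 in TPr. The Srgap3 share and this ratio kept the groups apart in all 6 libraries, but they were chosen after the values were seen and are given without a test.

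The wider pathway was examined in 3 lists of 49 genes, of which 42 were tested. None was called with edgeR's quasi-likelihood test (smallest adjusted p = 0.201), 3 had an unadjusted p under 0.05, and DESeq2 called 1, Tll1. Over all genes these shares were 0.426%, 15.0% and 5.28%. The log2 fold change was above 0 for 21 and below 0 for 21, with a median of 0.03 beside 0.01 over all genes tested. Groups without overlap were found for 4 of the 42 lower in TPr and 2 higher. Over the 11974 genes tested these numbers were 1443 and 1269. In the 4 libraries numbered 2 and 3, 17 of 43 (39.5%) were called, 11 higher and 6 lower in TPr, beside the 40.0% of all genes.

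Other ligands and co-receptors of Robo numbered 17, with 12 tested and a median log2 fold change of -0.01. The lowest was Flrt1, a leucine-rich membrane protein of the Flrt family, at 0.423 to 8.17 CPM in Ctl and 0.414 to 1.33 CPM in TPr (log2 fold change -2.86, SE 1.04; edgeR, adjusted p = 0.277). The highest was the netrin receptor Unc5c, at 4.96 to 25.3 CPM in Ctl and 2.60 to 41.3 CPM in TPr (log2 fold change 0.91, SE 1.02; edgeR, adjusted p = 0.724). Both spread widely within a label. The alternative Robo ligands Nell1 and Nell2 had 0 reads in all 6 libraries. Of the syndecans, the heparan sulfate carriers that hold Slit at the cell surface, Sdc2 was highest, at 191 to 395 CPM in Ctl and 162 to 283 CPM in TPr. Lower levels were seen for Sdc1 (32.7 to 85.9 and 31.3 to 97.9 CPM), Sdc3 (38.3 to 49.6 and 23.1 to 60.1 CPM) and Sdc4 (39.7 to 137 and 47.1 to 121 CPM).

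The 23 cytoplasmic partners, of which 22 were tested, had a median log2 fold change of 0.09. The highest was Cap2, an actin regulator, at 5.68 to 6.36 CPM in Ctl and 6.26 to 18.4 CPM in TPr (log2 fold change 1.21, SE 0.41; edgeR, adjusted p = 0.251). The lowest was Clasp1, a microtubule plus-end protein, at 64.0 to 122 CPM in Ctl and 56.7 to 90.0 CPM in TPr (log2 fold change -0.38, SE 0.30; edgeR, adjusted p = 0.602). Transcripts of the GTPases at the end of the pathway were abundant and overlapped between the labels: Cdc42 lay at 376 to 498 CPM in Ctl and 371 to 454 CPM in TPr, and Rac1 at 287 to 446 CPM and 300 to 387 CPM.

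Genes for the processing and trafficking of Slit and Robo numbered 9, with 8 tested and a median log2 fold change of -0.20. The lowest was Tll1, a tolloid-like protease, at 1.45 to 2.87 CPM in Ctl and 0.111 to 0.835 CPM in TPr, groups that did not overlap (log2 fold change -2.35, SE 0.67; edgeR, adjusted p = 0.201; DESeq2, adjusted p = 0.0273). Tll1 had 24, 47 and 52 reads in Ctl and 2, 6 and 18 in TPr, so it too rests on few TPr reads. Like Robo2 it passed the filter through its Ctl libraries, so its tests are no support beyond the reads themselves. The highest was Bmp1, of the same protease family, at 70.4 to 100 CPM in Ctl and 50.5 to 165 CPM in TPr (log2 fold change 0.38, SE 0.41; edgeR, adjusted p = 0.714). Adam10, the sheddase that cleaves Robo, lay at 168 to 171 CPM in Ctl and 132 to 161 CPM in TPr (log2 fold change -0.23), again without overlap and without a call.

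The genes whose levels ran most like Robo1 were AK129341, Hdgfrp3, Lipo1, Capn6 and Bche, with Pearson's r of log2 CPM between 0.9962 and 0.9978 over the 6 libraries, the 5 highest of 10966 genes searched. AK129341 lay at 97.0 to 160 CPM in Ctl and 8.80 to 10.7 CPM in TPr, and Hdgfrp3 at 20.2 to 26.2 CPM and 0.664 to 0.974 CPM. Capn6, a calpain family member, lay at 116 to 129 CPM and 29.7 to 40.7 CPM, Lipo1 at 26.9 to 28.4 CPM and 14.6 to 16.4 CPM, and Bche, butyrylcholinesterase, at 9.12 to 11.8 CPM and 0.997 to 1.02 CPM. The likeness is over 6 libraries that share 1 split by label, and it is a description.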

How the data were processed

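Polyadenylated RNA of 6 libraries was made into stranded libraries and read as pairs. The submitters' processing notes name CASAVA 1.8.2, Trimmomatic 0.35 and TopHat2 2.1.0, and the reads were aligned to mm10 and counted on genes with Htseq-count. The counts were deposited by the authors without normalization. The Htseq-count version, its annotation and its strand setting are not given in the sources used here. Rows that name no gene were left out: reads outside genes made up 6.86% to 10.9% of the reads listed per library, ambiguous reads 0.939% to 1.09% and reads with several alignments 5.89% to 8.92%.

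The analysis ran in edgeR 4.0.16 under R 4.3.3 (TMM, filterByExpr, quasi-likelihood test with the label as the only term, Benjamini-Hochberg adjustment over all genes tested). A call is an adjusted p under 0.05 and a fold change no smaller than 0.5 on the log2 scale, either way. The SE of an edgeR log2 fold change is its size over the square root of the test's F statistic. The likeness to Robo1 was computed on log2 CPM with a prior count of 2, among genes with a mean of at least 1. DESeq2 1.42.0, RLE normalization, other filters, the replicate number as a block, leaving out each library and the 4 libraries numbered 2 and 3 were the alternatives, and the fits were tested on simulated counts.

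The members and gene lists were chosen with earlier results of these data known. Genes are named if they are members, if they are called or have the largest rise or fall in a partner list, if they flank Robo1 in the table, or if they are the 5 most like it. Sdc1, Sdc2, Sdc3, Sdc4, Cdc42, Rac1, Adam10, Nell1 and Nell2 were named after their values were seen. Gene positions come from GENCODE M21 and upstream sequences from RefSeq.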

Additional observations from a re-analysis of the deposited data

How the results depend on the processing

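Over all genes, 51 calls became 31 with at least 10 counts in every library, 683 with DESeq2 and 4854 in the 4 libraries numbered 2 and 3. Leaving out each library gave 0 to 108: 108 without Ctl MSC 1, 1 without MSC-TPr 2 and 0 without Ctl MSC 2, Ctl MSC 3 or MSC-TPr 3. Calls among the members other than Robo1 went from 0 to 2 with DESeq2 and to 5 in the 4 libraries, and calls among the partners from 0 to 1 and 17. The log2 fold change of Srgap1 turned from 0.50 to -0.06 in the 4 libraries. The cause was not tested.

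With the replicate block, edgeR called 0 members, 0 partners and 0 genes (776 at an unadjusted p under 0.05), and Robo2 and Slit3 stood at -3.64 (adjusted p = 0.489) and -2.02 (adjusted p = 0.504). After subtraction of the group means, libraries with the same number correlated at -0.765, -0.594 and -0.604, and 0 of 6 libraries correlated best with its own number. Ctl 1 and TPr 1 stood apart from their groups in opposite directions, so these correlations cannot decide whether a number marks a pairing. Without 1 library, Robo2 lay between -4.37 and -3.04 and Slit2 between -1.66 and -0.02. Of the fold changes of the tested members other than Robo1 under the alternatives, 63 kept their direction and side of the threshold, 7 passed it and 1 reversed. Robo1 and Robo2 leave the filter of 10 counts in every library.

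With the length of all annotated exons, an alternative chosen after seeing the data, Slit2 held 43.0% of the Slit level in Ctl MSC 1 instead of 62.4%, Srgap3 held 64.0% to 66.3% in Ctl and 52.8% to 54.8% in TPr, and the median ratio of Slit to Robo went from 1.57 to 1.50 in Ctl and from 19.9 to 18.9 in TPr. Few reads limit Robo3 and Robo4 in all libraries, Slit1, with at most 17 reads in a library, and Robo1 and Robo2 in TPr.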
